A study of Mus musculus with 21 samples.

Results

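Carriers that move amino acids across the cell surface were followed in mouse liver, and these were *Slc7a1*, *Slc7a2*, *Slc3a2*, *Slc7a5*, *Slc1a4*, *Slc1a5*, *Slc38a2*, *Slc38a3*, *Slc38a4* and *Slc6a9*. They were taken as the rows of the deposited count table whose Ensembl identifier carries one of these symbols in GENCODE release M21, and all 10 were found among the 46078 gene rows. Each also passed the filter on low counts that left 14370 genes for testing.

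The data were poly(A) RNA sequencing of whole liver from 21 mice, in a cross of 2 genotypes with 3 diets. The knockouts (KO) lacked *Cse*, the gene for cystathionine γ-lyase, also named *Cth*, which makes cysteine from methionine by transsulfuration. The comparison animals are labelled WT in the deposited labels, whereas the study's text gives heterozygous *Cse*+/− animals for this design, and WT is used here as the label. All animals were of a 129/C57BL/6 background, were at least 9 weeks old when the diets began and, by the study's account, were calorie-restricted males. The diets were a defined amino acid diet (CTR), the same diet without cysteine (noCys) and the same diet without tryptophan (noTrp), with the remaining amino acids raised in proportion. The groups held 3 WT CTR, 4 KO CTR, 4 WT noCys, 3 KO noCys, 2 WT noTrp and 5 KO noTrp libraries, numbered as in the labels, so that the KO noCys libraries are replicates 1, 3 and 4. Because a gene was deleted in the whole animal and whole liver was sampled, fewer cells of a type and less RNA per cell cannot be told apart.

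Amino acid carriers fall into families that differ in substrate and in driving force. The SLC7 light chains such as LAT1 (*Slc7a5*) trade one neutral amino acid for another and reach the cell surface only as a heterodimer with the heavy chain CD98 (*Slc3a2*), whereas the cationic carriers CAT1 (*Slc7a1*) and CAT2 (*Slc7a2*) work alone. The SLC1 carriers ASCT1 (*Slc1a4*) and ASCT2 (*Slc1a5*) exchange small neutral amino acids, cysteine among them for ASCT1. The SLC38 carriers SNAT2 (*Slc38a2*), SNAT3 (*Slc38a3*) and SNAT4 (*Slc38a4*) bring in neutral amino acids with sodium, and GLYT1 (*Slc6a9*) brings in glycine. When an amino acid runs short, the kinase GCN2 slows translation, the transcription factor ATF4 accumulates and genes for amino acid uptake and synthesis are induced, which is known as the integrated stress response. Hepatocytes are known for high SNAT3, SNAT4 and CAT2 and for low CAT1.

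ATF4 binds composite C/EBP-ATF elements with the core TGATGNAA, and this core was looked for on both strands in the RefSeq promoter windows, which run from 250 bases before to 50 bases after a start site (build GRCm38.p6). There were 11 windows for 6 members, and 1 of those windows held the core, whereas 3.97% of all 32851 windows held it. The minus-strand windows of 3 members are shown up to 30 bases past the start site, because these members kept their calls in the pairwise comparisons of KO noCys below whichever library was left out. They lie at chr11:20332684-20332963 for *Slc1a4*, chr5:148399875-148400154 for *Slc7a1* and chr19:8713868-8714147 for *Slc3a2*, and capitals mark the core.
Slc1a4: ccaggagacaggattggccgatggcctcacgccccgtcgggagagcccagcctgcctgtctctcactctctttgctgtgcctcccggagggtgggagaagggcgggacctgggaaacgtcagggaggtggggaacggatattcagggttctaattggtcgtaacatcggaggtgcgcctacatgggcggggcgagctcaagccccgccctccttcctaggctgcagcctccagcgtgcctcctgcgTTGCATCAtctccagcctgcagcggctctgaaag
Slc7a1: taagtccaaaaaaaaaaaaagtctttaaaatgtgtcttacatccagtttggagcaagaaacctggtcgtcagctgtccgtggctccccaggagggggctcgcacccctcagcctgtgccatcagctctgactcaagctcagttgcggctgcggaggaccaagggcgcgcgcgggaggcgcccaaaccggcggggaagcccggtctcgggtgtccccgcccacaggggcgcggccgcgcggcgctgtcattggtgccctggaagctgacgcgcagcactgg
Slc3a2: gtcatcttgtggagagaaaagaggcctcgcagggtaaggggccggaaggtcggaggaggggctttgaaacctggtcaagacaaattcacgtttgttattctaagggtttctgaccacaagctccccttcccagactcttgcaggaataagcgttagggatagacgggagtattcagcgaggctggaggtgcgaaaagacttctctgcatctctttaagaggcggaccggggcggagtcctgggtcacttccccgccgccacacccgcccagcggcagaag
The *Slc1a4* window held 1 core, TTGCATCA, which is the core read on the opposite strand, and its first base lies at −4 from the start site. No match was found in the windows of *Slc7a1*, *Slc3a2*, *Slc38a2*, *Slc38a4* or *Slc6a9*, which says only that these letters are not there. *Slc7a2*, *Slc7a5*, *Slc1a5* and *Slc38a3* are given by name only.

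Depth ranged from 8889951 counts (KO noCys replicate 1) to 27230852 counts per library. *Cth* stood at 6.34 to 14.99 CPM (library counts scaled to a common total with TMM factors) in the 12 KO libraries and at 107.8 to 451.7 CPM in the 9 WT libraries, so every library matched its genotype label. Hepatocyte markers were abundant in every library, with a summed level over 10 markers of 47830 to 79150 CPM in KO noCys, 106200 to 121700 CPM in WT noCys and 72560 to 105000 CPM elsewhere. Of these 10 hepatocyte markers, 6 fell in KO noCys against WT noCys, beside 13.4% of all genes called lower there. The summed levels of 7 cholangiocyte markers (25.8 to 31.1 CPM against 46.7 to 68.7 CPM), of 8 erythroid markers (132.2 to 163.8 CPM against 192.4 to 381.6 CPM), of 10 endothelial and stellate markers (280.0 to 315.4 CPM against 338.1 to 426.3 CPM) and of 7 adipocyte markers (7.29 to 9.45 CPM against 14.4 to 23.5 CPM) were also lower in every KO noCys library than in every WT noCys library. The summed level of 9 periportal hepatocyte markers was lower as well (10290 to 14220 CPM against 14700 to 15590 CPM), whereas that of 9 pericentral hepatocyte markers overlapped (12970 to 14920 CPM against 11410 to 13960 CPM), as did those of 10 Kupffer cell and leukocyte markers (70.5 to 80.1 CPM against 76.5 to 125.2 CPM) and 8 pancreas markers (13.4 to 17.7 CPM against 12.7 to 17.6 CPM). Only 2 of the 7 adipocyte markers and 1 of the 8 pancreas markers passed the filter on low counts. The part of all these marker sets in the results below was not tested.

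Per kilobase of merged exons, the members covered a wide range of levels in WT CTR liver. *Slc38a3* was highest at 354 ± 21.7 CPM per kb (mean ± SD, n = 3), followed by *Slc38a4* at 207 ± 39.4, *Slc7a2* at 89.6 ± 22.7, *Slc38a2* at 26.9 ± 4.93 and *Slc3a2* at 10.6 ± 0.561 CPM per kb. *Slc6a9* (0.858 ± 0.156), *Slc7a5* (0.748 ± 0.136) and *Slc1a5* (0.598 ± 0.098) came next, and their ranges over libraries overlapped from one to the next. *Slc1a4* followed at 0.321 ± 0.113 CPM per kb. *Slc7a1* was lowest at 0.048 ± 0.0119 CPM per kb, which corresponded to 4 to 7 counts per library. In KO noCys liver *Slc3a2* reached 31.6 ± 15.3 CPM per kb and its range overlapped that of *Slc38a2* (28.9 ± 10.5), whose range lay above it in WT CTR. *Slc7a1* remained the lowest member on this scale in all 6 groups.

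**Figure D1:**
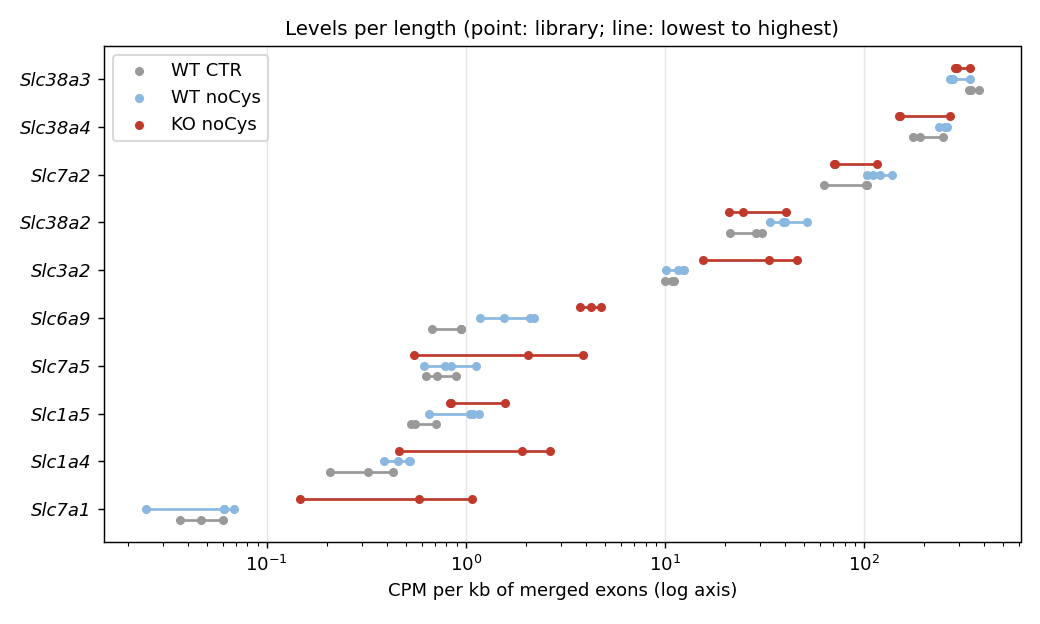
CPM per kilobase of merged exons on a log axis for each member in the WT CTR, WT noCys and KO noCys libraries, where each point is a library and each line runs from the lowest to the highest. *Slc38a3*, *Slc38a4* and *Slc7a2* are the 3 highest in each group, and *Slc7a1*, *Slc3a2*, *Slc7a5* and *Slc1a4* reach their highest levels in KO noCys libraries.

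The central question was which carriers differ between KO and WT liver when cysteine is missing from the diet. *Slc7a1*, *Slc1a4*, *Slc3a2*, *Slc7a5* and *Slc6a9* rose in KO noCys against WT noCys, by 11.2-, 3.58-, 2.72-, 2.66- and 2.39-fold, and no member fell (edgeR quasi-likelihood test over all 21 libraries, Benjamini-Hochberg adjusted p under 0.05). These 5 of 10 compare with 14.8% of all 14370 genes called higher in the same comparison. All 10 members were chosen with earlier results of these data known, so the 2 shares are a description and not a test. The median log2 fold change over the 10 members was 0.72, beside −0.02 over all genes tested. *Slc7a1*, *Slc1a4* and *Slc3a2* belong to a list of stress-response genes that the study chose with these libraries among its data, so their direction is not independent evidence. Of the members, 3 (*Slc7a1*, *Slc3a2* and *Slc6a9*) were higher in every KO noCys library than in every WT noCys library, as were 19.4% of all genes.

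**Figure D2:**
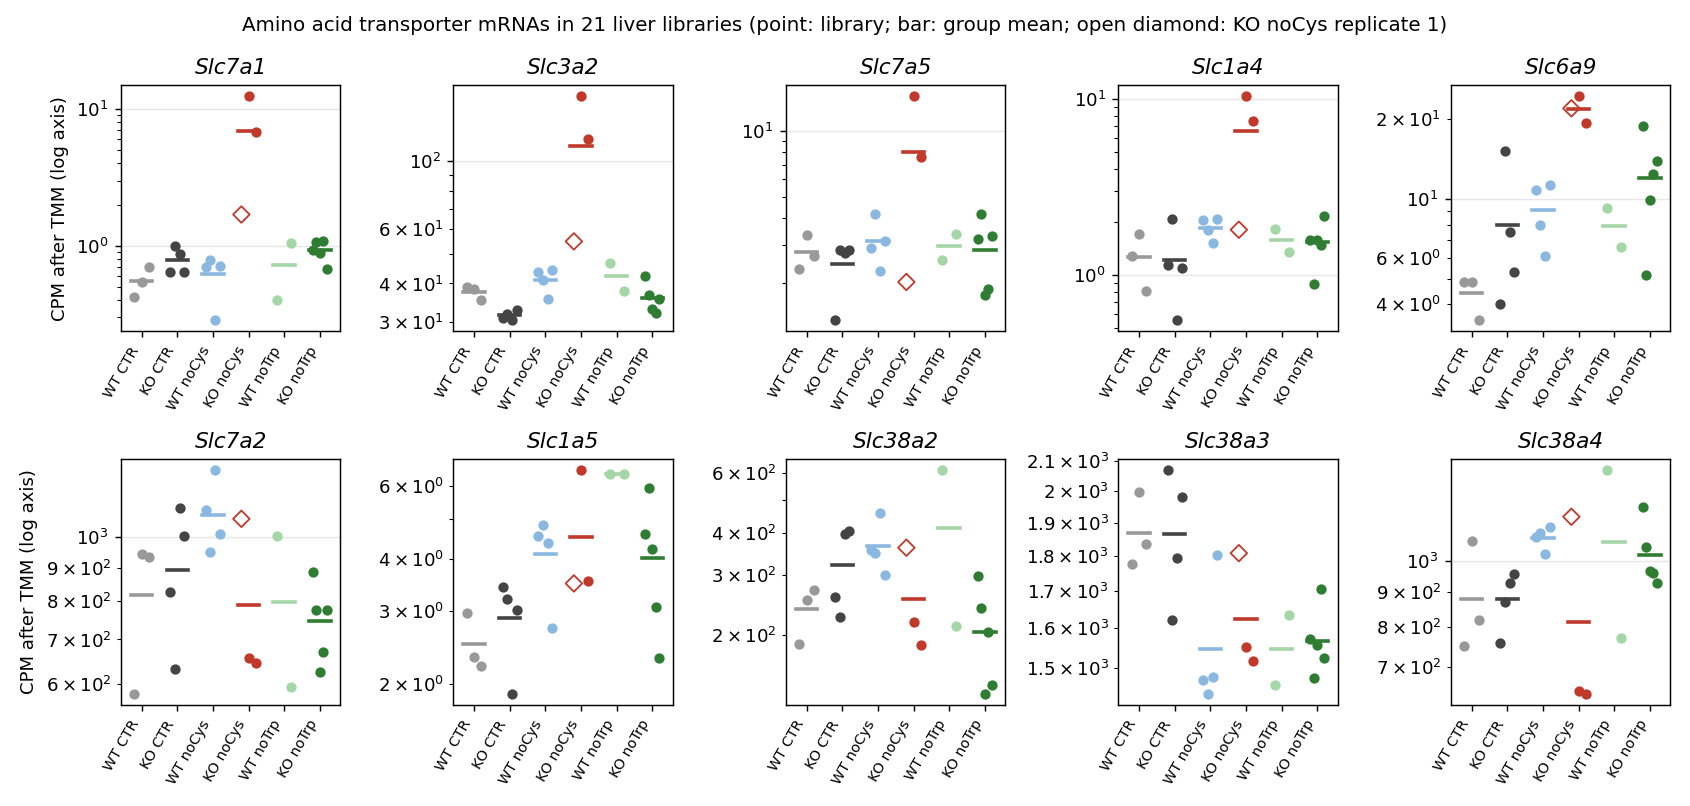
CPM after TMM scaling (log axes, each with its own range) for the 10 members in the 21 libraries, by group, with a bar at each group mean and an open diamond for KO noCys replicate 1. *Slc7a1*, *Slc3a2* and *Slc6a9* lie above the other 18 libraries in all 3 KO noCys libraries, and *Slc7a5* and *Slc1a4* do so in replicates 3 and 4. The share of all genes that lie above the other 18 libraries in this way was not computed.

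*Slc7a1* encodes CAT1, the widely expressed carrier of arginine, lysine and ornithine, and lies at chr5:148327410-148399904 on the minus strand (GRCm38). Its level in KO noCys was 1.69, 12.4 and 6.75 CPM in replicates 1, 3 and 4, from 15, 261 and 105 counts. In WT noCys it was 0.700, 0.788, 0.285 and 0.705 CPM, from 3 to 14 counts. The KO noCys libraries thus lay above all WT noCys libraries, although they differed widely among themselves. On the control diet *Slc7a1* measured 0.424, 0.541 and 0.697 CPM in WT and 0.642, 0.999, 0.866 and 0.640 CPM in KO. Without tryptophan it measured 0.402 and 1.05 CPM in WT and 0.923, 1.06, 0.882, 1.09 and 0.672 CPM in KO. Outside KO noCys no library exceeded 1.09 CPM. In KO noCys against WT noCys *Slc7a1* had a log2 fold change of 3.49 ± 0.46 (SE, edgeR adjusted p = 1.79e-05). Leaving out each library in turn kept the call, with log2 fold changes between 2.77 (without KO noCys replicate 3) and 3.92.

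*Slc3a2* encodes CD98, the heavy chain that carries LAT1 and related light chains to the membrane, and lies at chr19:8706882-8723369 on the minus strand. KO noCys liver held 54.8, 162.5 and 117.6 CPM in replicates 1, 3 and 4. WT noCys liver held 43.6, 41.1, 35.6 and 44.3 CPM. Every KO noCys library was above every library of the other 5 groups, whose highest value was 46.6 CPM in WT noTrp replicate 1. The remaining WT noTrp library held 37.7 CPM, and the KO noTrp libraries held 42.3, 36.8, 33.0, 32.1 and 35.7 CPM. On the control diet *Slc3a2* measured 39.1, 38.3 and 35.3 CPM in WT and 31.0, 31.8, 30.4 and 32.9 CPM in KO. Those KO CTR values all lay below the WT CTR values, as for 5.53% of all genes, and this difference did not pass the test (log2 fold change −0.25 ± 0.22, edgeR adjusted p = 0.754). In KO noCys against WT noCys the log2 fold change of *Slc3a2* was 1.44 ± 0.21 (edgeR adjusted p = 5.34e-05). The call held in every fit with a library left out, with log2 fold changes from 1.07 to 1.77.

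*Slc7a5* encodes LAT1, the CD98-bound exchanger of large neutral amino acids, and lies at chr8:121881150-121907694 on the minus strand. It measured 2.03, 14.4 and 7.58 CPM in KO noCys and 2.92, 4.17, 2.28 and 3.12 CPM in WT noCys. Replicate 1 of KO noCys was therefore below all 4 WT noCys libraries, and the groups overlapped. In the control groups *Slc7a5* measured 2.33, 3.32 and 2.67 CPM in WT and 1.36, 2.85, 2.76 and 2.83 CPM in KO. Without tryptophan the values were 2.55 and 3.36 CPM in WT and 3.20, 4.17, 1.76, 1.88 and 3.28 CPM in KO. Only KO noCys replicates 3 and 4 exceeded 4.17 CPM. The log2 fold change against WT noCys was 1.41 ± 0.41 (edgeR adjusted p = 0.0144). It rests on replicate 3, without which it was 0.68 with an edgeR adjusted p of 0.269.

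*Slc1a4* encodes ASCT1, an exchanger of alanine, serine, cysteine and threonine, and lies at chr11:20302180-20332713 on the minus strand, where the window printed above marks its start. KO noCys libraries held 1.80, 10.4 and 7.52 CPM, and WT noCys libraries held 2.04, 1.80, 1.52 and 2.07 CPM. Replicate 1 lay within the WT noCys range, and replicates 3 and 4 lay above it. Control livers held 1.27, 1.70 and 0.813 CPM in WT and 1.14, 2.07, 0.551 and 1.10 CPM in KO. Tryptophan-free livers held 1.81 and 1.34 CPM in WT and 1.57, 0.887, 1.59, 1.48 and 2.16 CPM in KO. Against WT noCys, *Slc1a4* had a log2 fold change of 1.84 ± 0.41 (edgeR adjusted p = 0.00237). The call held in every fit with a library left out, with log2 fold changes from 1.35 to 2.25.

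*Slc6a9* encodes GLYT1, the sodium- and chloride-coupled carrier of glycine, and lies at chr4:117834506-117875198 on the plus strand. It was the called member whose KO noCys libraries lay closest together, at 21.99, 24.5 and 19.3 CPM in replicates 1, 3 and 4. WT noCys libraries held 10.9, 7.997, 6.08 and 11.3 CPM, all lower. The WT CTR libraries held 4.87, 4.87 and 3.49 CPM, and the KO CTR libraries held 3.995, 15.1, 7.48 and 5.30 CPM. Without tryptophan *Slc6a9* measured 9.26 and 6.57 CPM in WT and 18.9, 5.14, 9.88, 12.5 and 13.9 CPM in KO. The *Slc6a9* libraries were spread widely within KO CTR and KO noTrp, and the highest KO noTrp library came close to the lowest KO noCys library. The log2 fold change against WT noCys was 1.26 ± 0.37 (edgeR adjusted p = 0.0146), and without KO noCys replicate 3 it was 1.17 with an edgeR adjusted p of 0.0636. Of the *Slc6a9* exons, 27.8% lie opposite exons of *Ccdc24*, and with a library kit that does not mark strand reads there cannot be assigned to either gene. *Ccdc24* itself averaged 1.52 CPM in WT noCys and 0.883 CPM in KO noCys and was not called (edgeR adjusted p = 0.196).

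The 5 members that did not pass in KO noCys against WT noCys had log2 fold changes from −0.52 to 0.18, and 4 of them were the most abundant members per kilobase in WT CTR liver. *Slc38a4*, which encodes the hepatocyte carrier SNAT4 (chr15:96994820-97055956, minus strand), measured 1159, 646 and 639 CPM in KO noCys replicates 1, 3 and 4. In WT noCys it measured 1084, 1096, 1021 and 1119 CPM. Replicates 3 and 4 were thus below all WT noCys libraries and replicate 1 above them. The log2 fold change was −0.41 ± 0.20 (edgeR adjusted p = 0.130), and without replicate 1 it was −0.75 with an edgeR adjusted p of 0.00516.

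*Slc7a2*, which encodes CAT2, the cationic amino acid carrier of hepatocytes (chr8:40862396-40922308, plus strand), measured 1067, 657 and 645 CPM in KO noCys and 1099, 952, 1266 and 1011 CPM in WT noCys. Replicates 3 and 4 lay below the WT noCys range and replicate 1 lay inside it. Its log2 fold change was −0.45 ± 0.23 (edgeR adjusted p = 0.142), and without replicate 1 it was −0.73 with an edgeR adjusted p of 0.0295. *Slc38a2*, which encodes the stress-responsive carrier SNAT2 (chr15:96687392-96699730, minus strand), measured 361, 218 and 186 CPM in KO noCys and 355, 349, 458 and 300 CPM in WT noCys. The same held for *Slc38a2*, with replicates 3 and 4 below the WT noCys range and replicate 1 inside it. *Slc38a2* had a log2 fold change of −0.52 ± 0.33 (edgeR adjusted p = 0.249), the lowest of the 10. Under limma-voom with quality weights *Slc38a4*, *Slc7a2* and *Slc38a2* were all called lower in this comparison, with log2 fold changes of −0.59, −0.57 and −0.67, and this tool called 17.7% of all genes lower.

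The remaining 2 members had the estimates nearest to 0 in KO noCys against WT noCys. *Slc38a3*, which encodes the glutamine carrier SNAT3 (chr9:107650634-107669530, minus strand), measured 1808, 1551 and 1516 CPM in KO noCys and 1470, 1437, 1478 and 1802 CPM in WT noCys. Its log2 fold change was 0.07 ± 0.11 (edgeR adjusted p = 0.657). *Slc1a5*, which encodes ASCT2 (chr7:16781340-16798274, plus strand), measured 3.50, 6.58 and 3.54 CPM in KO noCys and 4.55, 4.84, 4.37 and 2.72 CPM in WT noCys. *Slc1a5* had a log2 fold change of 0.18 ± 0.29 (edgeR adjusted p = 0.671). It lay within 1 standard error of 0.

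**Figure D3:**
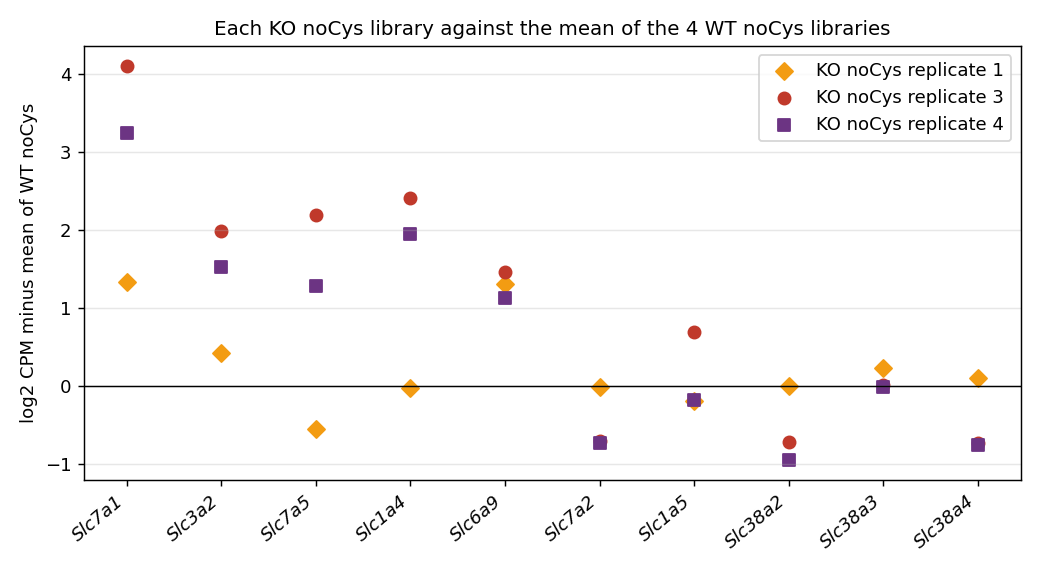
Log2 CPM of each member in KO noCys replicates 1, 3 and 4 minus the mean log2 CPM of the 4 WT noCys libraries. *Slc6a9* is raised alike in the 3 libraries, whereas *Slc7a1*, *Slc3a2*, *Slc7a5* and *Slc1a4* are furthest up, and *Slc7a2*, *Slc38a2* and *Slc38a4* down, in replicates 3 and 4.

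The 3 KO noCys livers were therefore not alike in these carriers. Relative to the WT noCys mean, *Slc7a1* differed by 1.33, 4.11 and 3.24 on the log2 CPM scale in replicates 1, 3 and 4. *Slc3a2* differed by 0.42, 1.98 and 1.52, and *Slc1a4* by −0.03, 2.41 and 1.95. *Slc7a5* differed by −0.56 in replicate 1, opposite in sign to its 2.19 and 1.27 in replicates 3 and 4. *Slc6a9* differed by 1.31, 1.46 and 1.12, with no such gap. Over the 2130 genes called higher in KO noCys against WT noCys, the medians of the same difference were 0.55, 0.75 and 0.63 in replicates 1, 3 and 4, and replicate 1 was the lowest of the 3 libraries in 55.7% of those genes. Replicate 1 also had the lowest total count of the 21 libraries. Its summed hepatocyte markers stood at 79150 CPM, against 47830 and 52570 CPM in replicates 3 and 4, and its periportal markers at 14220 CPM, against 10520 and 10290 CPM. The part of depth and of these markers was not tested.

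The next question was whether cysteine removal moved the carriers within the knockouts. *Slc7a1*, *Slc1a4*, *Slc3a2*, *Slc7a5* and *Slc6a9* rose in KO noCys against KO CTR, which is again 5 of 10 members beside 10.6% of all genes called higher. Their log2 fold changes were 3.13 ± 0.43 for *Slc7a1*, 2.39 ± 0.42 for *Slc1a4*, 1.83 ± 0.21 for *Slc3a2*, 1.74 ± 0.41 for *Slc7a5* and 1.41 ± 0.36 for *Slc6a9* (edgeR adjusted p from 8.89e-06 for *Slc3a2* to 0.00974 for *Slc6a9*). The same KO noCys libraries enter both comparisons, so the calls are not independent of those above. Summed hepatocyte, cholangiocyte, erythroid and adipocyte markers were lower in every KO noCys library than in every KO CTR library. Those KO CTR sums were 83930 to 95810, 32.05 to 72.65, 187.8 to 343 and 10.79 to 14.53 CPM. The other marker sums overlapped, and the part of these markers was not tested. Every KO noCys library exceeded every KO CTR library for 4 members, *Slc7a1*, *Slc3a2*, *Slc6a9* and the uncalled *Slc1a5* (log2 fold change 0.67 ± 0.29, edgeR adjusted p = 0.116), as it did for 15.4% of all genes. Without KO noCys replicate 3 the calls of *Slc7a5* (1.01, edgeR adjusted p = 0.125) and *Slc6a9* (edgeR adjusted p = 0.0502) were lost, and the log2 fold change of *Slc7a1* was 2.42, the lowest of its fits with a library left out, which reached 3.56.

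**Figure D4:**
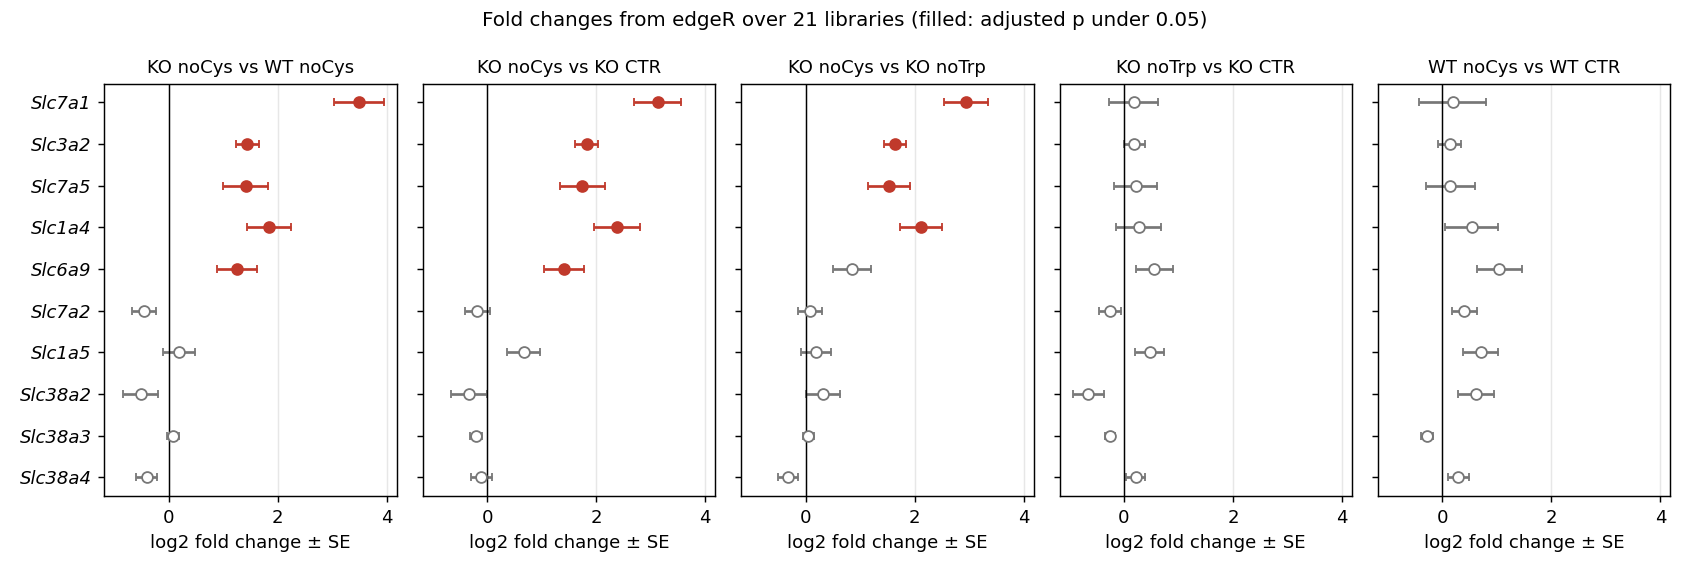
Log2 fold change ± SE of each member in 5 comparisons from the edgeR fit over 21 libraries, with filled red points for an adjusted p under 0.05 and open grey points otherwise. The filled points occur in the 3 comparisons that contain KO noCys, with 5, 5 and 4 members, and none occurs for KO noTrp against KO CTR or WT noCys against WT CTR.

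The tryptophan-free diet served as a second amino acid deficiency. In KO noTrp against KO CTR no member was called by edgeR or by DESeq2, 2 had an unadjusted p under 0.05 (*Slc38a2* at −0.65 ± 0.28 and *Slc38a3* at −0.25 ± 0.10 on the log2 scale), and limma-voom called *Slc38a2* lower. Of all genes, 1.87% were called by edgeR, 16.9% had an unadjusted p under 0.05, and limma-voom called 2.28% lower. *Slc7a1*, *Slc3a2*, *Slc7a5* and *Slc1a4* had log2 fold changes of 0.18 ± 0.45, 0.19 ± 0.19, 0.21 ± 0.39 and 0.27 ± 0.41 there, and none of these passed. Compared directly, *Slc7a1*, *Slc1a4*, *Slc3a2* and *Slc7a5* were higher in KO noCys than in KO noTrp, by 7.73-, 4.33-, 3.11- and 2.89-fold (edgeR adjusted p from 3.98e-05 for *Slc3a2* to 0.0118 for *Slc7a5*). That is 4 of 10 members, beside 7.17% of all genes called higher. *Slc6a9* missed the threshold (log2 fold change 0.85 ± 0.34, edgeR adjusted p = 0.102), although it was among the 3 members, with *Slc7a1* and *Slc3a2*, whose every KO noCys library exceeded every KO noTrp library, as for 10% of all genes. *Slc6a9* was called under limma-voom (0.85, adjusted p = 0.0193) and without KO noTrp replicate 1 (1.08, edgeR adjusted p = 0.0419). *Slc38a4* was called lower under limma-voom (−0.45, adjusted p = 0.0370) and without KO noCys replicate 1 (−0.67, edgeR adjusted p = 0.0161). In this comparison limma-voom called 12.1% of all genes higher and 10.2% lower. Leaving out each library kept the call of *Slc7a1*, with log2 fold changes from 2.23 (without KO noCys replicate 3) to 3.38. The call of *Slc7a5* was lost without KO noCys replicate 3 (0.80, edgeR adjusted p = 0.263) and in a fit of these 2 groups alone (edgeR adjusted p = 0.0562).

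On the other diets no member passed the threshold between genotypes. In KO CTR against WT CTR no member was called by edgeR, DESeq2 or limma-voom, and only *Slc6a9* had an unadjusted p under 0.05 (log2 fold change 0.89 ± 0.42, edgeR adjusted p = 0.513). Of all genes, 0.32% were called by edgeR and 9.59% had an unadjusted p under 0.05. Without KO CTR replicate 2, which stood at 15.1 CPM, that *Slc6a9* estimate was 0.33. In KO noTrp against WT noTrp no member was called by any of these tools, and 2 had an unadjusted p under 0.05, beside 8.91% of all genes at that unadjusted p and 0.195% called by edgeR. The 2 members were *Slc38a2* (log2 fold change −1.02 ± 0.34) and *Slc1a5* (−0.67 ± 0.31). For *Slc38a2* the 2 WT noTrp libraries were far apart at 612 and 213 CPM, and the KO noTrp libraries ran from 134 to 298 CPM with a median of 204 CPM. Without WT noTrp replicate 1 the *Slc38a2* estimate was −0.07, and without WT noTrp replicate 2 it was −1.59 (edgeR adjusted p = 0.0272). In these 2 fits the lone WT noTrp library is assumed to vary like the other groups.

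In WT liver, *Slc7a1*, *Slc3a2*, *Slc7a5* and *Slc1a4* passed the test on neither diet. In WT noCys against WT CTR no member was called by edgeR, DESeq2 or limma-voom in the fit over all libraries, beside 0.661% of all genes called by edgeR. At an unadjusted p under 0.05 there were 3 members, beside 13.9% of all genes. These were *Slc6a9* (log2 fold change 1.05 ± 0.42), *Slc1a5* (0.71 ± 0.32) and *Slc38a3* (−0.27 ± 0.11). Every WT noCys library lay above every WT CTR library for 3 members, *Slc6a9*, *Slc7a2* and *Slc38a2*, as for 9.15% of all genes. In WT noTrp against WT CTR *Slc1a5* was the 1 member called, beside 1.7% of all genes called higher. Its level was 6.44 and 6.42 CPM in WT noTrp and 2.97, 2.32 and 2.21 CPM in WT CTR, with a log2 fold change of 1.36 ± 0.36 (edgeR adjusted p = 0.0407). Summed Kupffer cell and leukocyte markers lay higher in WT noTrp (131.6 to 132.1 CPM) than in WT CTR (57.04 to 92.15 CPM). The adipocyte sum (15.46 to 23 against 9.874 to 13.66 CPM) also lay higher. The endothelial and stellate sum (351.5 to 356.6 against 383.5 to 430.8 CPM) lay lower, and the other sums overlapped. The part of these markers in the *Slc1a5* call was not tested. That call was lost in each of the 5 fits with a library left out, of which 2 leave a lone WT noTrp library that is assumed to vary like the other groups, and under limma-voom.

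Whether cysteine removal acted differently in the 2 genotypes was tested as an interaction. The log2 fold change of noCys over CTR was larger in KO than in WT by 2.94 ± 0.79 for *Slc7a1* (edgeR adjusted p = 0.0279) and by 1.70 ± 0.30 for *Slc3a2* (edgeR adjusted p = 0.00228), which is 2 of 10 members beside 3.56% of all genes called higher. *Slc1a4* (1.85 ± 0.65, edgeR adjusted p = 0.0898) and *Slc7a5* (1.60 ± 0.61, edgeR adjusted p = 0.119) had estimates of like size that did not pass. *Slc6a9* gave 0.37 ± 0.56, the difference between its 1.41 within KO and its 1.05 within WT. The *Slc3a2* interaction was called in all 14 fits with a library left out, whereas that of *Slc7a1* was lost without any of the 3 WT CTR libraries, whose counts were 4 to 7, and without KO noCys replicate 3. Over these 14 fits the estimates ran from 2.23 to 3.36 for *Slc7a1*, from 1.37 to 2.31 for *Slc1a4* and from 0.86 to 2.02 for *Slc7a5*. Without KO noCys replicate 1 the interactions of *Slc1a4* and *Slc7a5* were called as well.

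The KO effect was likewise larger without cysteine than without tryptophan for *Slc7a1*, by 3.13 ± 0.77 on the log2 scale (edgeR adjusted p = 0.0183), and for *Slc3a2*, by 1.67 ± 0.31 (edgeR adjusted p = 0.00289). These 2 of 10 stand beside 3.32% of all genes called higher. *Slc1a4* (1.87 ± 0.65, edgeR adjusted p = 0.0938) and *Slc7a5* (1.46 ± 0.63, edgeR adjusted p = 0.181) did not pass. The *Slc7a1* call was lost without KO noCys replicate 3, without WT noTrp replicate 2 (where 1 library stands for the group, as above), under limma-voom (adjusted p = 0.195) and in a fit of the groups compared (edgeR adjusted p = 0.0526), and that of *Slc3a2* held in each of 14 fits with a library left out. In those 14 fits the *Slc7a1* estimate ran from 2.32 to 3.68, and some of them leave a lone WT noTrp library. Without KO noCys replicate 1 *Slc1a4* and *Slc7a5* were called here too (edgeR adjusted p = 0.00874 and 0.0201).

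Across the 21 libraries the highest correlations between members were those of *Slc3a2*. It correlated with *Slc1a4* at r = 0.895, with *Slc7a1* at r = 0.87 and with its light chain partner *Slc7a5* at r = 0.831 (Pearson, log2 CPM, n = 21 libraries). After the group means were subtracted these values were 0.757, 0.738 and 0.818. Over the 18 libraries outside KO noCys, again after subtraction, they were 0.3, −0.0617 and 0.376. Outside KO noCys *Slc3a2* had r = 0.633 with *Slc38a4* after subtraction. Among the abundant members r was 0.816 for *Slc7a2* and *Slc38a2* and 0.567 for *Slc38a2* and *Slc38a4*. After subtraction these were 0.855 and 0.77, and after subtraction without KO noCys they were 0.833 and 0.757. Between *Slc7a1* and the 4 most abundant members r was −0.57 for *Slc38a4*, −0.418 for *Slc7a2*, −0.334 for *Slc38a2* and −0.186 for *Slc38a3*. *Slc6a9* correlated with *Slc1a4*, *Slc7a1* and *Slc3a2* at r = 0.698, 0.638 and 0.602, and at 0.435, 0.104 and 0.181 after subtraction. *Slc38a3* and *Slc1a5* had r = −0.62 with each other. The points share libraries and scaling, and these correlations are given as a description only.

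**Figure D5:**
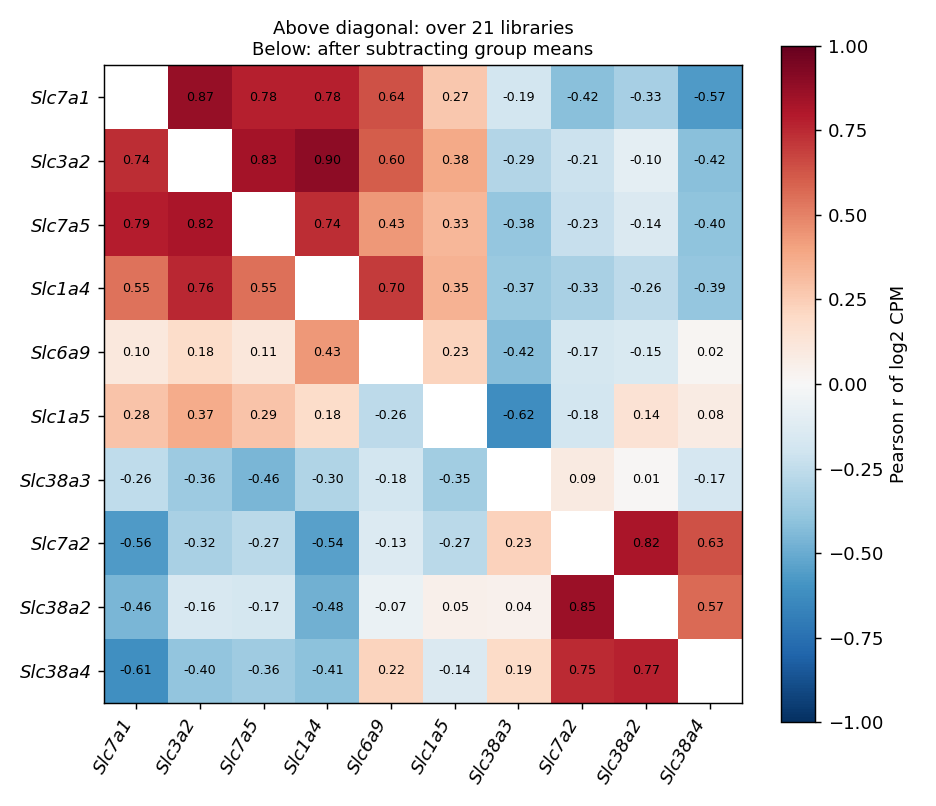
Pearson r of log2 CPM between members, over the 21 libraries above the diagonal and after subtraction of the group means below it. *Slc7a1*, *Slc3a2*, *Slc7a5* and *Slc1a4* form a block of positive values at the upper left, and *Slc7a2*, *Slc38a2* and *Slc38a4* form another at the lower right.

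Outside the members, the protein-coding genes most like *Slc7a1* over the 21 libraries were *Sars* (r = 0.922), *Adm2* (0.921) and *Iars* (0.912). Those most like *Slc3a2* were *Arhgef2* (r = 0.952), *Gramd1c* (0.938) and *Sqstm1* (0.908), and those most like *Slc1a4* were *Inpp5b* (r = 0.876), *Trim27* (0.863) and *Soat2* (0.861). Over the 18 libraries outside KO noCys, here without subtraction of group means, r with *Slc7a1* was 0.516 for *Sars*, 0.182 for *Adm2* and 0.59 for *Iars*. There r with *Slc3a2* was 0.441 for *Arhgef2*, 0.5 for *Gramd1c* and 0.211 for *Sqstm1*, and r with *Slc1a4* was 0.789 for *Inpp5b*, 0.345 for *Trim27* and 0.535 for *Soat2*. For *Slc38a2*, the genes most like it were *Ell2* (r = 0.932), *Lurap1l* (0.895) and *Susd6* (0.886), and without KO noCys these were 0.961, 0.933 and 0.879.

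Of 28 further plasma membrane amino acid carriers listed, 11 passed the filter on low counts and 17 did not. Among the 11, 1 was called higher and 2 lower in KO noCys against WT noCys, beside 14.8% and 13.4% of all genes. In KO noCys against WT noCys *Slc6a12*, the betaine and GABA carrier BGT1, rose (79.6 ± 6.22 CPM in WT noCys, n = 4, and 136.6 ± 6.19 CPM in KO noCys, n = 3, log2 fold change 0.78 ± 0.11, edgeR adjusted p = 3.46e-05). *Slc6a6*, the taurine carrier, fell by 0.70 on the log2 scale (edgeR adjusted p = 0.00346). *Slc43a2*, the branched-chain amino acid carrier LAT4, fell by 0.56 (edgeR adjusted p = 0.0341). In KO noCys against KO CTR, *Slc6a12*, *Slc6a6* and *Slc43a2* had log2 fold changes of 0.52, −0.66 and 0.08 (edgeR adjusted p = 0.0023, 0.00727 and 0.826). The median log2 fold change of the 11 in KO noCys against WT noCys was −0.36. *Slc7a11*, the cystine carrier xCT that also pairs with CD98, did not pass the filter. It had 0, 30 and 4 counts in KO noCys replicates 1, 3 and 4, no count in any WT noCys library and at most 2 counts in any other library. A count of 0 allows up to 3 counts, or 0.338 CPM in KO noCys replicate 1.

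Among 18 carriers of lysosomes and mitochondria, 17 were tested and 3 rose in KO noCys against WT noCys, a share near the 14.8% of all genes called higher. They were *Slc38a7*, which encodes the lysosomal glutamine and asparagine carrier SNAT7 (log2 fold change 0.64 ± 0.14), *Mfsd12*, which is needed for cysteine import into lysosomes (0.52 ± 0.14), and *Ctns*, which encodes the lysosomal cystine exporter cystinosin (0.38 ± 0.12), with edgeR adjusted p of 0.00157, 0.00702 and 0.0226. No organelle carrier fell, and the median of the 17 was 0.15. These changes were smaller than those of the 5 called members, a difference that was not tested.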

How the data were processed

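Liver poly(A) RNA was sequenced from 21 mice, and the authors aligned reads with HISAT2 2.1.0 to GRCm38 and counted them per gene with HTSeq 0.11.0, per the submitters' processing notes. The deposited values are raw counts per Ensembl gene, and 1 column that matched no sample was not used. The annotation release and strand setting of the counting are not given in the sources used here. Identifiers were named from GENCODE M21, in which 45229 of 46078 were found. Groups came from the deposited labels. No 2 of the 29 within-group pairs of libraries were identical, and the titles number them as biological replicates.

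Counts were filtered with filterByExpr (minimum count 10, minimum total 15), scaled by TMM and fitted with edgeR 4.0.16 (R 4.3.3) in 1 model over 6 groups. Tests were two-sided quasi-likelihood F-tests, adjusted by Benjamini-Hochberg over 14370 genes and called at an adjusted p under 0.05. Errors are SE of the log2 fold change, computed as its absolute value divided by the square root of the F statistic. CPM use TMM-scaled totals, and log2 CPM a prior count of 2. Alternatives were DESeq2 1.42.0, limma-voom 3.58.1 with quality weights, RLE factors, library totals, no filter, a replicate block, a fit of the compared groups, and each library left out. The fit was tested on simulated data. Counting limits cover counting error only. Further carriers were named if called in KO noCys against WT noCys, together with *Slc7a11* whatever its value, and 3 genes were named for likeness to each of 4 members. The members and lists were chosen with earlier results of these data known.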

Additional observations from a re-analysis of the deposited data

Results flagged for a closer look

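Within groups of 4 or 5 libraries, 30 sets of member values were examined for a library far from the rest, and 2 stood out, where chance gives about 1 in 20. *Slc7a5* in KO CTR replicate 1 stood at 1.36 CPM, with a gap to the next library of 0.934 of the group's range. *Slc38a3* in WT noCys replicate 4 stood at 1802 CPM, with a gap of 0.888 of the range.

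The effect of cysteine removal differed between genotypes for *Slc7a1* (by 2.94 on the log2 scale) and *Slc3a2* (by 1.70), and the KO effect differed between noCys and noTrp for *Slc7a1* (by 3.13) and *Slc3a2* (by 1.67), each by the edgeR interaction test given above.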

How the results depend on the processing

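No count of called members changed by over 1.5 times under DESeq2, RLE factors, library totals or no filter. Under limma-voom with quality weights, 8 members instead of 5 were called in KO noCys against WT noCys (5 higher, 3 lower), 6 instead of 4 in KO noCys against KO noTrp (*Slc6a9* and *Slc38a4* added), 1 instead of 0 in KO noTrp against KO CTR (*Slc38a2*), 0 instead of 1 in WT noTrp against WT CTR, 6 instead of 2 for the cysteine interaction (3 higher, 3 lower) and 1 instead of 2 for the noCys minus noTrp interaction (*Slc7a1* lost). In the same order, limma-voom called 37.3%, 22.3%, 4.24%, 0.223%, 15.2% and 3.85% of all genes. In a fit of the compared groups, 1 member (*Slc6a9*) was called in WT noCys against WT CTR, 0 in WT noTrp against WT CTR and 1 for the noCys minus noTrp interaction (*Slc7a1* lost). The cause of these shifts was not tested. With each library left out, the counts ranged from 3 to 7 for KO noCys against WT noCys, 3 to 5 against KO CTR, 3 to 5 against KO noTrp, 0 to 1 for KO noTrp against WT noTrp, 0 to 1 for WT noTrp against WT CTR, and 1 to 4 for both interactions. The lows in the KO noCys comparisons came without KO noCys replicate 3. The shares of all genes called in these fits and in the fit of the compared groups are not given here. These counts of members therefore stand without that background. In KO noCys against WT noCys, *Slc38a3* ranged from −0.01188 (without KO noCys replicate 1) to 0.153 (without WT noCys replicate 4), and *Slc1a5* from −0.211 (without KO noCys replicate 3) to 0.343 (without KO noCys replicate 4). In WT noTrp against WT CTR, *Slc38a2* ranged from −0.158 (without WT noTrp replicate 1) to 1.36 (without WT noTrp replicate 2, edgeR adjusted p = 0.0487), with the lone WT noTrp library assumed to vary like the other groups. Correlations without KO noCys were chosen after the values were seen. Deviations of same-numbered libraries from their group means correlated at −0.355 to 0.353. Pairs with different numbers were not compared, so whether the numbers pair the libraries cannot be decided from these values. The replicate block changed 0 of 100 member calls, with 5 members called in KO noCys against WT noCys and 5 against KO CTR. Low counts limit *Slc7a1*, whose libraries outside KO noCys held 3 to 28 counts.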
